A study of Mus musculus with 2 samples.

Results

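Among the dorsal cells of the neonatal mouse heart base, 737 carried RNA of both Tnfsf8 and Il33 without Sele, and they are described here as Tnfsf8 Il33 fibroblast-like cells. They were chosen by a rule on counts of unique molecular identifiers (UMIs, 1 per captured RNA molecule): at least 2 UMIs of Tnfsf8, at least 1 of Il33 and 0 of Sele, in a dorsal barcode with at least 8000 UMIs and at most 20% of them from mitochondrial genes. The 737 cells were 8.26% of 8926 dorsal cells (95% Clopper-Pearson interval 7.69 to 8.85%), out of 19575 cells in both libraries. The rule used the levels of Tnfsf8, Il33 and Sele, so those values are given as a description. With 1 library per domain no test was possible, and every interval below covers counting error only.

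The study's title concerns Isl1-expressing neural crest cells of the cardiac inflow tract. Hearts of 15 C57Bl6 mice, male and female and 3 days old, were divided into a dorsal domain (sinoatrial node, cardiac ganglia, pulmonary veins) and a ventral domain (proximal aorta, pulmonary artery, base of the outflow tract). The cells of each domain were pooled, grown for 5 days as an adherent culture and then sequenced with 10x Genomics 3' v3 chemistry, so all cells of both groups are cultured, pooled cells, and library and domain cannot be told apart. The library titles give day 3 and the protocol gives mice 3 days old and 5 days of culture, and the protocol was followed. The labels name no genetic change and no drug treatment.

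Tnfsf8 encodes CD30 ligand, a membrane protein of the tumour necrosis factor family that binds CD30 on activated lymphocytes. Il33 encodes an alarmin of the interleukin 1 family that is stored in the nuclei of stromal and endothelial cells and, once released, binds the receptor ST2 on lymphoid cells and mast cells. Cxcl13 encodes the chemokine that draws B cells into follicles, and Ly6a encodes SCA-1, a surface protein much used to sort stromal and progenitor cells, including a class of adventitial fibroblasts around vessels. Sele, which the rule excludes, encodes E-selectin, an adhesion molecule best known from activated endothelium.

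Tnfsf8 lies on the minus strand of chromosome 4 from 63831308 to 63861347 in GRCm38, Il33 on chromosome 19 from 29925114 to 29960718, Cxcl13 on chromosome 5 from 95956951 to 95961068, and Ly6a on the minus strand of chromosome 15 from 74994877 to 74998031. The 250 bases upstream of the RefSeq start sites (GRCm38.p6) are shown for the genes the rule turns on and for Cxcl13, because these are the genes whose RNA sets the cells apart. No entry was matched for Ly6a. The windows are chr4:63861285-63861534 (minus strand), chr19:29924863-29925112 and chr19:29945540-29945789 for the 2 Il33 entries, and chr5:95956689-95956938.
Tnfsf8: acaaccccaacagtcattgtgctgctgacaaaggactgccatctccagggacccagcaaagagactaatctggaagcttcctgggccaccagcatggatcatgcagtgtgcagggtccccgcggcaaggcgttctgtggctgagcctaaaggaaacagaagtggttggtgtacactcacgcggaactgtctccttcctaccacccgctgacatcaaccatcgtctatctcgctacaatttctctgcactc
Il33, first entry: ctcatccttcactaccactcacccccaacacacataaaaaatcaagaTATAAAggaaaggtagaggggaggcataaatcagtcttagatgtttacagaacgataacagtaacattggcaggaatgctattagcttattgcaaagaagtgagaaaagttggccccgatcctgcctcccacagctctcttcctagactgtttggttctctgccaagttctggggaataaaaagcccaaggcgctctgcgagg
Il33, second entry: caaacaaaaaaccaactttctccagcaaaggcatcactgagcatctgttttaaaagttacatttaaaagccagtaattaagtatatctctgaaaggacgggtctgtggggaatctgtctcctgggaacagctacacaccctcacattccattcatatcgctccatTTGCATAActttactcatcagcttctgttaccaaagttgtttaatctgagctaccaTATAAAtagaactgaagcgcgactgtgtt
Cxcl13: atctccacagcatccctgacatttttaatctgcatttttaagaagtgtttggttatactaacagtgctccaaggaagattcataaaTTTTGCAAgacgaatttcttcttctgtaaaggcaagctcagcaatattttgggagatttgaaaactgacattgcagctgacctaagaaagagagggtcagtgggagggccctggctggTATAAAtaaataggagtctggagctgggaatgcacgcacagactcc
Capitals mark matches, on either strand, to a TATA-box form, TATAAA, or to a form bound by C/EBP factors, TTGCNNAA. The second Il33 entry has the TATA form beginning 29 bases before its start and the C/EBP form 85 bases before it, whereas the first entry has the TATA form 203 bases before its start. Cxcl13 has the TATA form 46 bases and the C/EBP form 164 bases before the start. The Tnfsf8 window has neither. A STAT form, TTCNNNGAA, and a kappa-B form (3 G, any 3 bases, then TTCC) were also searched and were found in none of the 4 windows. Among 32817 mouse windows of the same length, 12.4% held the TATA form, 9.57% the C/EBP form, 7.01% the STAT form and 4.65% the kappa-B form. A match is a description of the letters, and the data measured no binding.

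Tnfsf8 was far more abundant in the dorsal library. Its level over all cells, as UMIs per 1000000 UMIs (CPM), was 45.7 CPM in the dorsal and 1.36 CPM in the ventral library. Of the ventral cells 10460 had no Tnfsf8 UMI and 15 of 10649 met the same rule (0.141%, interval 0.0789 to 0.232%), against 8.26% of dorsal cells. In those 15 ventral cells Tnfsf8 was at 87.7 CPM, Il33 at 62.1 CPM and Cxcl13 at 186 CPM, against 229, 258 and 484 CPM in the members. No UMI of Ccl11 was found in them, but it was found in only 15.6% of members. Igfbp3 and Mfap5, described below, were higher in the 15 cells, at 2372 and 727 CPM against 726 and 614 CPM. Cxcl13 was found in 13.3% of those 15 cells, so its level rests on few of them. The member cells held 49.5% of all dorsal Tnfsf8 UMIs, 30.8% of the Il33 UMIs, 36.2% of the Cxcl13 UMIs and 29.0% of the Ly6a UMIs, although they held 9.88% of dorsal UMIs in all. The shares of Tnfsf8 and Il33 are set in part by the minimums of the rule. Another 2097 dorsal cells had Il33 with no Tnfsf8 and no Sele.

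**Figure D1:**
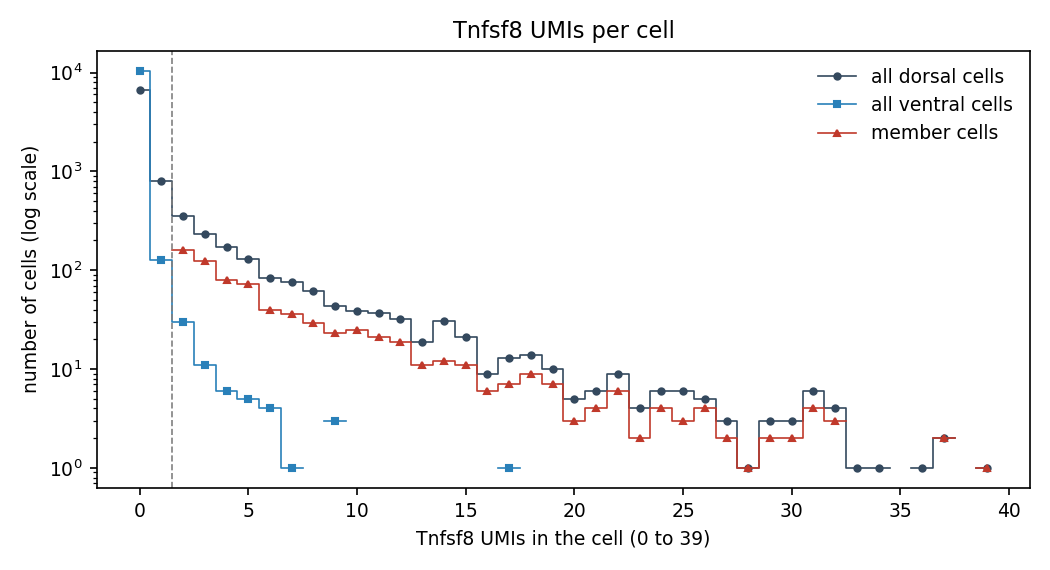
Number of cells (y axis, log scale) by Tnfsf8 UMIs in the cell (x axis, 0 to 39) for all dorsal cells, all ventral cells and the member cells; points stand for cell numbers and the dashed line for the minimum of 2 UMIs. The dorsal cells continue past the minimum without a gap, while 10460 ventral cells sit at 0.

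Within the 737 cells Tnfsf8 ranged from 2 to 46 UMIs with a median of 5. Il33 ranged from 1 to 158 UMIs with a median of 3. The other named markers were much more uneven. Cxcl13 had a median of 0 and a highest value of 873 UMIs, was found in 274 member cells (37.2%) and was missing from 463. Ly6a had a median of 0 and a highest value of 74 UMIs and was found in 225 member cells (30.5%). The 10 cells with most Cxcl13 held 35.8% of the members' Cxcl13 UMIs, so its mean level describes a minority of very rich cells.

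The member cells were deeper than those around them. Their median was 27821 UMIs, against 22189 in the other dorsal cells, and a rule on minimum counts is met more easily by a deep cell. When every cell was reduced to 8000 UMIs, Tnfsf8 was detected in 78.7% and Il33 in 66.6% of the member cells, and 3.19% of dorsal cells met the rule. How often the rule was met by cells with markers of other types was counted as a background. Of 457 dorsal cells with at least 2 UMIs of the Schwann cell genes Sox10 and Cdh19 (median 13770 UMIs), 1.09% met it, and Tnfsf8 was detected in 1.53% of them at the fixed depth. Of 373 cells with the mesothelial genes Upk3b and Lrrn4 (median 26832 UMIs) 0.536% met it, and of 397 cells with the leukocyte genes Ptprc and Csf1r (median 38134 UMIs) 4.53%. Of 131 cells with the endothelial genes Pecam1 and Cdh5 (median 23215 UMIs) 11.5% met it, a share above the 8.26% of all dorsal cells, and their Tnfsf8 level was 49.5 CPM. Of those 131 cells 19.1% lay in the cluster of all cells that Cxcl13 and Tnfsf8 lead. The cluster led by Nts, Emcn and Cdh5 (98 dorsal cells) held 0 members. Near-empty dorsal droplets (at most 100 UMIs each) had 31.1 CPM of Tnfsf8, and the part of free RNA and of mixed droplets in these shares was not tested. A total of 22 barcodes were called in both libraries, and 3 of them were member barcodes.

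The fibroblast label was set beside the levels of 12 markers. All 12 were detected in the summed member cells, but so were all 8 Schwann cell, 8 macrophage and 8 smooth muscle markers. Detection in the sum therefore does not tell the types apart. Col1a1, a chain of type I collagen, was found in 737 of 737 cells at 4058 CPM, next to 3634 CPM in the other dorsal cells with Pdgfra, and the proteoglycan gene Dcn in 730 cells at 2136 CPM. Pdgfra, the receptor that defines many cardiac fibroblasts, was found in 638 cells at 109.9 CPM, below the 186.7 CPM of those Pdgfra cells, which were chosen for it. Tcf21, an epicardial and fibroblast transcription factor, was lower, at 27.5 CPM against 74.2 CPM. The label did not hold for every cell: 42 members (5.70%) had at least 2 UMIs of a marker pair of another type, 18 of them of the leukocyte genes Ptprc and Csf1r, 15 of the endothelial genes Pecam1 and Cdh5, 5 of Sox10 and Cdh19, 4 of the muscle genes Myh6 and Myog and 2 of Upk3b and Lrrn4. A high doublet score, here 1 of the 637 highest in the dorsal library, was given to 89 members (12.1%), against 6.69% of other dorsal cells. The score's own threshold marked 0.0896% of dorsal cells and was taken not to have worked, and the members were also deeper. All members were kept, since the rule removes none.

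The main comparison set the members against 3785 other dorsal cells with at least 2 UMIs of Pdgfra and none of those marker pairs at 2 UMIs or more (median 22992 UMIs). Of 5507 genes at 20 CPM or more in either group, 27 were at least 2-fold higher in the members (0.49%) and 35 at least 2-fold lower (0.636%), and the median log2 ratio over all of them was 0.00. The members thus differed from these comparison cells in few genes. However, 23.9% of the comparison cells lay in the cluster of all cells that Cxcl13 and Tnfsf8 lead. Tnfsf8 was found in 20.5% and Il33 in 45.6% of them, so the comparison includes cells close to the rule. Their effect on the gene counts was not tested. The highest ratios as the rule gives the cells belonged to macrophage genes. Cells with 2 or more UMIs of Ptprc and Csf1r had been left out of the comparison cells, but 18 members held them. The sides were thus not chosen alike for these genes. Against all other dorsal cells, which include macrophages, the log2 ratio of Arg1 was -0.28. Arg1 (arginase 1) had 40.2 CPM in the members and 1.09 CPM in the Pdgfra cells, for a log2 ratio of 5.20 (4.91 to 5.51), and Marco (a scavenger receptor) at 50.6 against 2.10 CPM. Ccl3, Ccl4, Ccl12, Ccl6, Tyrobp, C1qa, Fcer1g, Ctss, Lyz2 and Cd68 filled the other places of the first 12.

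Those macrophage transcripts came from a handful of cells. A subgroup of 13 members, led by Lyz2, Ccl6, Marco and Fcer1g and with a median of 68324 UMIs, held 92.4% of the members' Arg1 UMIs, 96.2% of their Marco UMIs and 93.0% of their Lyz2 UMIs. All 13 fell in the cluster of all cells that these genes lead, 12 held another type's marker pair and 8 had a high doublet score. The same 13 held 2.22% of the Tnfsf8 UMIs and 0.657% of the Cxcl13 UMIs. Of the 8 macrophage markers, none was at 0 in the members. Without Ptprc and Csf1r, which the choice of the Pdgfra cells used, their summed level was 431 CPM against 34.2 CPM in the Pdgfra cells. After the cells with another type's marker pair were taken out on both sides, a step added after the data were seen, it was 68.1 against 34.2 CPM, and 14 of 5485 genes were at least 2-fold higher (0.255%) and 35 at least 2-fold lower (0.638%). The values that follow carry this correction where they are called corrected. In the main comparison it changed the members alone, because the Pdgfra cells had been chosen without such cells. The minimum of 2 Pdgfra UMIs was not asked of the members, and 452 of the 737 met the whole rule of the Pdgfra cells.

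Cxcl13 and Ly6a, which the rule did not use, stood among the highest of the 14. Cxcl13 was at 484 CPM (475 to 493) in the members and 117 CPM (115 to 120) in the other dorsal Pdgfra cells, 4.12-fold higher, with a corrected log2 ratio of 2.14 (2.11 to 2.18). Ly6a was at 62.5 CPM (59.2 to 65.8) against 19.1 CPM, 3.27-fold higher and 1.77 (1.67 to 1.87) corrected. Both markers had been named from these data before, so their direction is no independent support. Cxcl13 was not limited to Tnfsf8 cells, since the 373 dorsal cells with mesothelial genes had 366 CPM of it and it was detected in 37.0% of them at the fixed depth, against 26.6% of members. Ly6a in those mesothelial cells was at 3.09 CPM.

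The eosinophil chemokine gene Ccl11 (eotaxin) had the highest corrected ratio, 2.25 (2.11 to 2.40), at 35.0 CPM in the members and 7.90 CPM in the other Pdgfra cells. It was carried by 115 members, and 48.8% of its UMIs lay in 10 cells. Igfbp3, an insulin-like growth factor binding protein, was the most abundant gene of the set, at 726 against 292 CPM, 2.49-fold higher, and was found in 626 members. It was not limited to the members, with 980 CPM in dorsal cells with endothelial genes and 430 CPM in those with Schwann cell genes. Cells that the rule kept out only for Sele had 665 CPM. Dorsal cells with leukocyte genes had 196 CPM and those with mesothelial genes 95.8 CPM. Mfap5, a microfibril component of adventitial fibroblasts, was at 614 against 303 CPM, a log2 ratio of 1.02 (1.04 corrected), in 672 members. Rgs5, a regulator of G protein signalling typical of pericytes, was at 26.9 against 7.81 CPM, but 76.0% of its UMIs were in 10 cells. The remaining corrected places went to Dlgap1, Shisa3, Ppef1, Emb, Prss12, Pcdh19 and Wfdc17, with corrected log2 ratios between 1.06 and 1.59, and to Lyz2 at 1.01. The Lyz2 ratio became -0.15 without the 13 macrophage-gene cells and -0.24 with members of the Cxcl13-led cluster alone. Igfbp3 and Mfap5 were spread over most members, whereas Ccl11 and Rgs5 were not.

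The genes at lower levels included matrix proteases and genes of other stromal clusters. Mmp13 (a collagenase) had 3.67 CPM in the members and 28.1 CPM in the Pdgfra cells (log2 ratio -2.94, -3.27 to -2.62), and Mmp3 (a stromelysin) at 62.5 against 200 CPM, or -1.68. Chil1 (a chitinase-like secreted protein) was at 7.12 against 39.8 CPM, Thbs4 (a thrombospondin of tendon and muscle) at 4.46 against 21.7 CPM and Clca3a1 at 31.3 against 133 CPM. Ctla2a, Pdlim3, Atp1b1, Adamtsl2, Gucy1a3, Mme and Ifitm1 completed the first 12, with log2 ratios from -1.96 to -1.64. The acute-phase gene Saa3 was at 2618 CPM in the members and 5729 CPM in the comparison cells, a log2 ratio of -1.13. Mmp13 and Col10a1 led 1 dorsal cluster of 539 cells and Thbs4 and Chil1 were among the leading genes of another of 350 cells, and the members had 9 and 17 cells in them.

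**Figure D2:**
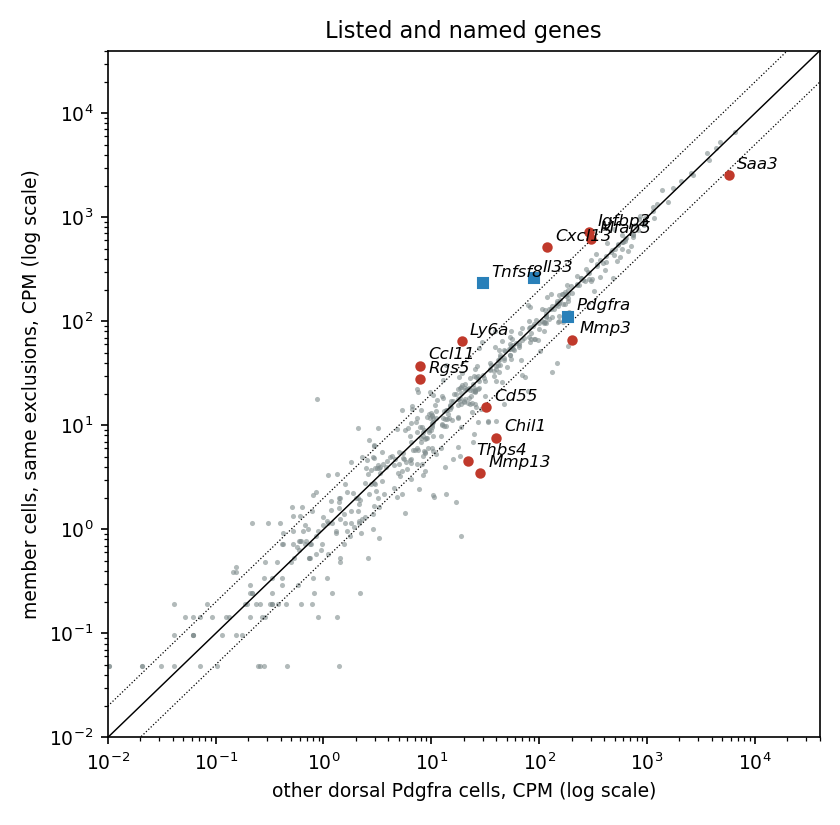
CPM in the member cells without cells that hold another type's marker pair (y axis, log scale) against CPM in the other dorsal Pdgfra cells (x axis, log scale) for listed and named genes; 1 point per gene, blue squares for genes the rules used, solid line for equal levels and dotted lines for 2-fold. Cxcl13, Ly6a, Ccl11, Igfbp3 and Mfap5 lie above the upper dotted line, and Mmp13, Chil1, Thbs4, Mmp3, Cd55 and Saa3 below the lower one.

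Gene lists were read against those shares of 0.49% higher and 0.636% lower. Ligands came first. Of 18 genes for tumour necrosis factor family ligands, 1 apart from Tnfsf8 reached 20 CPM, Tnfsf12 (TWEAK), at 41.4 against 42.7 CPM. Tnfsf13b, which encodes the B cell survival factor BAFF, stayed under that minimum but was at 14.1 CPM (12.6 to 15.8) in the members and 6.55 CPM (6.05 to 7.08) in the comparison cells, and 204 members carried it. Tnfsf11 (RANK ligand) was at 4.91 against 2.54 CPM in 40 members. Tnf itself was at 0.840 CPM, and no UMI of Cd40lg, Fasl or Il1b was found in the members.

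The receptors of the 2 ligands were close to absent. Tnfrsf8, the CD30 gene, had 1 UMI in 737 cells, and Il1rl1, the ST2 gene, had 5 UMIs, or 0.221 CPM (0.0718 to 0.516), against 1.21 CPM in the other dorsal Pdgfra cells. None of the 4 tumour necrosis factor receptor genes at 20 CPM or more was 2-fold apart: Tnfrsf1a was at 129 CPM in both groups, and Ltbr, the lymphotoxin receptor of lymphoid-organ stroma, at 44.1 against 46.8 CPM. The interleukin 1 receptor gene Il1r1 was likewise at 53.4 against 52.6 CPM.

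Among homeostatic chemokines, Cxcl13 was the 1 of 3 tested that reached 2-fold. Cxcl12 was at 746 against 491 CPM, a log2 ratio of 0.60, and Cxcl16 at 42.2 against 67.6 CPM. Of the lymphoid stroma list 1 of 9 tested genes was higher, again Cxcl13. Madcam1 and Cr2, markers of organised lymphoid stroma, were at 0.221 and 0.177 CPM. None of 4 tested inflammatory CXC chemokine genes was 2-fold apart, with Cxcl1 at 2583 against 2581 CPM and Cxcl5 at 255 against 485 CPM. Cxcl9, a chemokine induced by interferon gamma, was below the minimum level at 16.4 against 0.876 CPM, and 91.1% of its UMIs were in 10 of the 36 members that had it. In the CC chemokine list 5 of 8 tested genes (Ccl3, Ccl4, Ccl9, Ccl11, Ccl12) were higher as the rule gives the cells, and 1 of 4, Ccl11, after the correction.

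Of 16 tested NF-kappa-B genes none was 2-fold apart, and none of 16 immediate early, 13 interferon or 3 cell cycle genes was, which for lists of this size is close to the share over all genes. Of 11 tested acute-phase and complement genes 1, Saa3, was lower. Il6 was at 142 against 79.4 CPM, a log2 ratio of 0.84. Of 27 tested matrix genes Col8a1 alone was at least 2-fold apart, and it was lower. Of 11 tested adventitial fibroblast genes Ly6a and Mfap5 were higher and Cd55 lower, at 15.0 against 31.8 CPM, while Pi16 and Dpp4, the usual partners of Ly6a in that class, were at 3.89 and 5.66 CPM. Of 6 insulin-like growth factor binding genes Igfbp3 was higher.

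Next came the dorsal cells that carry Sele. The dorsal Sele Cxcl5 cells (511 cells, at least 2 UMIs of Sele and 1 of Cxcl5, median 26482 UMIs) differ from the members by the rule itself in Sele, and 312 of them are also among the other dorsal Pdgfra cells. Of 5529 genes, 51 were at least 2-fold higher in the members (0.922%) and 94 at least 2-fold lower (1.7%). Cxcl13 was at 484 against 71.3 CPM, 6.79-fold higher. Igfbp2 was at 48.9 against 9.50 CPM, the bone morphogenetic protein family gene Gdf10 at 109 against 28.0 CPM and the homeobox gene Hoxa5 at 57.2 against 16.8 CPM, and Ly6a and Rgs5 also stood in the first 6. Igfbp2 was uneven among the members, at 983 CPM in 33 cells with mural cell genes and at 4.22 CPM in the largest subgroup, and its log2 ratio of 2.36 became -0.10 with members of the Cxcl13-led cluster alone. Gdf10 was uneven too, at 232 CPM in a subgroup of 242 members and at 49.4 CPM in the largest subgroup. In the other dorsal Pdgfra cells Gdf10 was at 151 CPM, above the members.

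In the opposite direction the adhesion gene Selp (P-selectin) had 2.39 CPM in the members and 40.3 CPM in the Sele Cxcl5 cells (log2 ratio -4.08, -4.51 to -3.68), and the cardiac T-box gene Tbx20 was at 1.94 against 24.7 CPM, or -3.67. Adamtsl2, Pdlim3 and Clca3a1 were lower by log2 ratios of -3.27, -3.26 and -2.96. Nppa, the atrial natriuretic peptide gene, was at -3.95 as the rule gives the cells and at 0.10 (-0.20 to 0.40) once cells with another type's marker pair were removed from both groups, so that its difference rests on those cells. Of 5 tested cardiac transcription factor genes 3 (Hand2, Tbx20, Tcf21) were lower in the members, and 6 of 12 adventitial fibroblast genes (Ly6a, Cd248, Sema3c, Efemp1, Mfap5, Igfbp6) were higher and 2 (Dpt, Cd55) lower.

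The dorsal Gdf10 cells (1208 cells, at least 2 UMIs of Gdf10 and 1 of Barx1 or Osr2, median 18187.5 UMIs) include 764 of the other dorsal Pdgfra cells, and 117 members also met that gene rule. Of 5559 genes 69 were at least 2-fold higher in the members (1.24%) and 129 at least 2-fold lower (2.32%). Cxcl13 was 20.1-fold higher, at 484 against 24.1 CPM, and Calca, which encodes calcitonin and its related peptide, was 8.13-fold higher, at 36.2 against 4.46 CPM. Calca was not among the 14 genes at least 2-fold higher in the corrected main comparison. It was among the leading genes of another cluster, which held 1023 dorsal cells and 3 members. Il6 was at 142 against 43.6 CPM and the lipoprotein lipase gene Lpl at 430 against 103 CPM. Col10a1, the hypertrophic cartilage collagen, had 1.72 CPM in the members and 37.3 CPM in the Gdf10 cells (log2 ratio -4.43, -4.94 to -3.97), and Elovl7, Egfl6, Tmem178, Net1 and Lmo7 were lower by -3.32 to -2.62. The comparisons with the Sele Cxcl5 cells and the Gdf10 cells use 1 library and the same member cells, so they are not independent of each other. Neither comparison group contains a member cell.

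Against the ventral fibroblast-type cells the members differed in many more genes. These 2436 ventral cells, chosen by the same Pdgfra rule (median 23478 UMIs), gave 287 of 5757 genes at least 2-fold higher in the members (4.99%) and 369 at least 2-fold lower (6.41%), with a median log2 ratio of -0.02. For 4 genes the level in the other dorsal Pdgfra cells is set beside both. Cxcl2, a neutrophil chemokine, was at 826 CPM in the members, 940 CPM in the other dorsal Pdgfra cells and 42.5 CPM in the ventral cells. Il6 was at 142, 79.4 and 18.6 CPM, Mfap5 at 614, 303 and 189 CPM and Cxcl13 at 484, 117 and 15.2 CPM in the same order. For Cxcl2 the members and their dorsal neighbours were alike beside the ventral cells, whereas for Cxcl13 and Mfap5 the members lay above both.

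Ccl11 had 1 UMI in all the ventral Pdgfra cells, and its log2 ratio of 11.11 has a counting interval of 8.63 to 16.41. Csf3 (granulocyte colony-stimulating factor) was at 45.7 against 0.792 CPM and Calca at 36.2 against 0.475 CPM. Neither Csf3 nor Calca was among the genes at least 2-fold higher in the corrected comparison with the other dorsal Pdgfra cells. Arg1 had no UMI in these ventral Pdgfra cells, and was at least 847-fold higher against a limit of 3 counts. The choice of those cells left out any with 2 or more UMIs of Ptprc and Csf1r, whereas 18 such cells stayed among the members. Arg1 is also the gene held by the 13 macrophage-gene cells, as are most of the Ccl12 and Ccl3 UMIs. All 4 tested inflammatory CXC genes were higher in the members, with log2 ratios of 2.79 for Cxcl1, 4.28 for Cxcl2, 1.93 for Cxcl5 and 5.69 for Cxcl10. So were 8 of 11 acute-phase and complement genes, among them Saa3, C3, C4b and Ptx3, 9 of 16 immediate early genes and 6 of 16 NF-kappa-B genes, such as Nfkbiz and Tnfaip3. The summed inflammatory CXC list was at 3770 CPM in the members, 4072 CPM in the other dorsal Pdgfra cells and 486 CPM in the ventral cells. In the same order the acute-phase and complement list was at 6621, 9564 and 2380 CPM. The immediate early list was at 3643.5, 3714 and 1763 CPM and the NF-kappa-B list at 2339, 2559 and 1171 CPM. In these lists the difference from the ventral cells was thus shared by the other dorsal Pdgfra cells.

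Lower in the members than in the ventral cells were Ccl17 (0.530 against 24.7 CPM, a log2 ratio of -5.54), Tbx20 (-5.21), the neuronal microtubule gene Map2 (-5.03), S100a4 (-4.80), the troponin gene Tnnt2 (-4.50) and Selp (-4.30). Of 11 tested myofibroblast genes 10 were lower, with smooth muscle actin Acta2 at 379 against 4109 CPM and Tagln at 387 against 2120 CPM. Of 12 tested cell cycle genes 9 were lower, with Mki67 at 10.3 against 33.9 CPM and Top2a at 17.1 against 50.2 CPM. The summed myofibroblast list was at 2406 CPM in the members, 2841 CPM in the other dorsal Pdgfra cells and 10416 CPM in the ventral cells. The cell cycle list was at 169, 194 and 500 CPM in that order, so the other dorsal Pdgfra cells were low as well. Hand2, Mef2c, Tbx20 and Tcf21 were lower among 5 tested cardiac transcription factor genes. For all of these genes library and domain cannot be told apart.

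**Figure D3:**
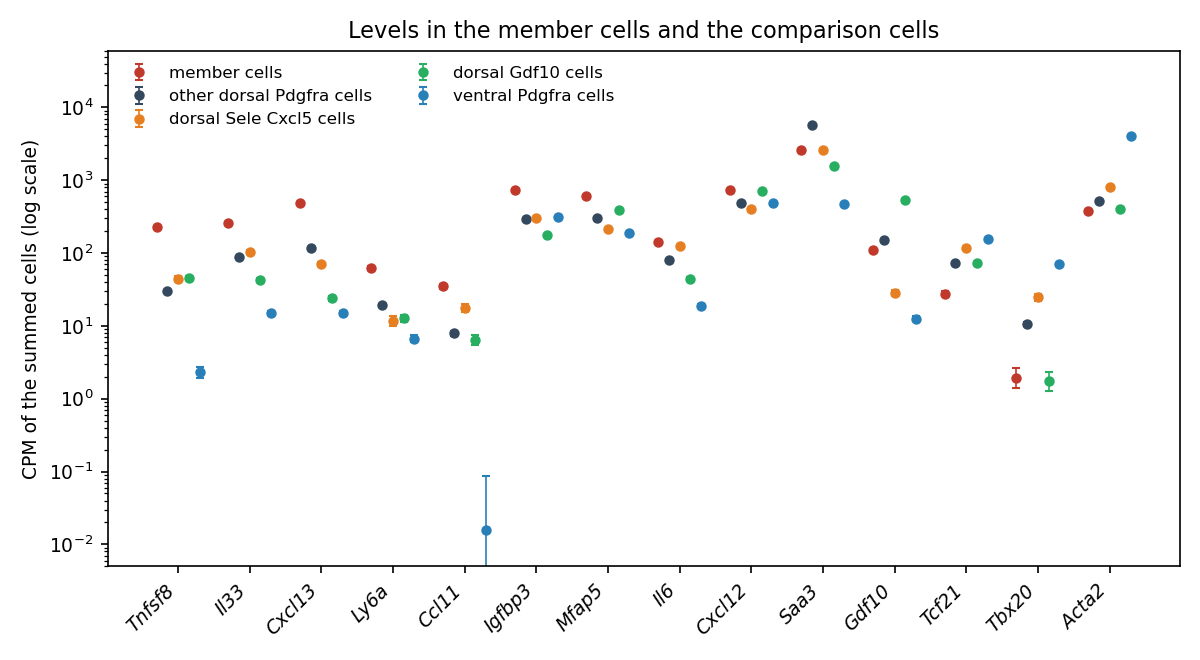
Level of 14 genes as CPM of the summed cells (y axis, log scale) in the member cells and 4 comparison groups; bars are 95% Poisson intervals for counting error. The member cells are highest for Tnfsf8, Il33, Cxcl13, Ly6a, Ccl11, Igfbp3, Mfap5, Il6 and Cxcl12, and the ventral Pdgfra cells for Tcf21, Tbx20 and Acta2.

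The cells at the edge of the rule were next set beside those inside. Members with exactly 2 Tnfsf8 UMIs (162 cells) had 323 CPM of Cxcl13 and 37.2 CPM of Ly6a, those with 3 to 4 UMIs (202 cells) had 484 and 57.1 CPM, and those with 5 or more (373 cells) had 545 and 74.8 CPM. Just outside, 319 cells with 1 Tnfsf8 UMI and Il33 had 222 CPM of Cxcl13 and 24.8 CPM of Ly6a. Cells with neither Tnfsf8, Il33 nor Sele (3841 cells, median 19932 UMIs) had 59.6 and 9.18 CPM. Of these 3841 cells 26.0% held another type's marker pair, against 5.70% of all members, so they are a different mixture of cells. Median depth was 26693, 26926.5 and 29331 UMIs in the member classes in the order given, and 23615 UMIs in the 319 cells just outside. Cxcl13 and Ly6a thus changed by degrees across the minimum, with no break at 2 UMIs.

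The cells on either side of the Il33 minimum were compared in the same way. The 523 dorsal cells with at least 2 Tnfsf8 UMIs but no Il33 had 97.2 CPM of Cxcl13 and 43.3 CPM of Ly6a, and 2.53 CPM of Ccl11. Members with 1 Il33 UMI (186 cells) had 244 CPM of Cxcl13 and 5.63 CPM of Ccl11. At 2 to 4 UMIs (251 cells) the values were 287 and 5.20 CPM, and at 5 or more (300 cells) 817 and 80.9 CPM. Ccl11 was thus highest in the members richest in Il33, while Ly6a was highest, at 85.4 CPM, in the middle class. The 144 cells kept out only because they had Sele showed 213 CPM of Cxcl13, 48.0 CPM of Ly6a, 56.8 CPM of Ccl11 and 221 CPM of Il6.

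**Figure D4:**
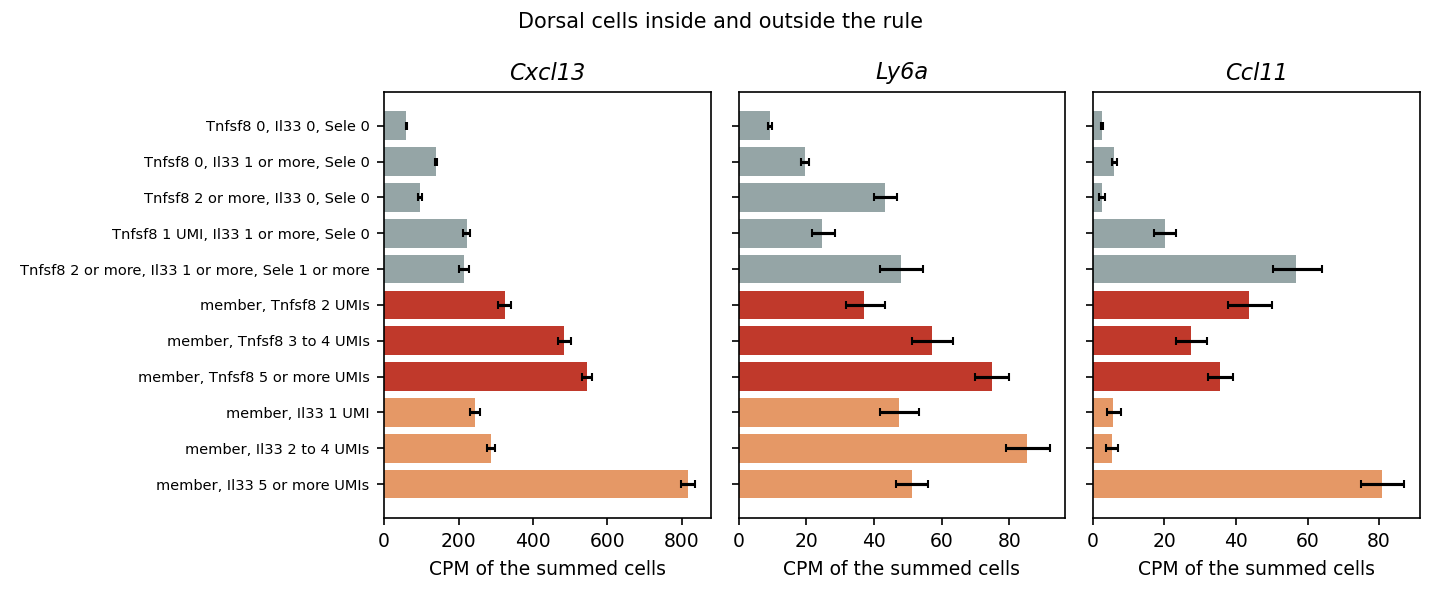
Cxcl13, Ly6a and Ccl11 as CPM of the summed cells (x axes, from 0) in dorsal cells outside the rule (grey), members by Tnfsf8 UMIs (red) and members by Il33 UMIs (orange); bars are sums and whiskers 95% Poisson intervals. Cxcl13 reaches 817 CPM and Ccl11 80.9 CPM in members with 5 or more Il33 UMIs.

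Clusters were formed from all 19575 cells of both libraries, and members were found in 12 of 25. Of the members 485 (65.8%) lay in 1 cluster whose leading genes were Cxcl13, Tnfsf8, Il33 and Ly6a (2078 dorsal cells, 10 ventral), and these were 23.3% of its dorsal cells. In that whole cluster Tnfsf8 was at 102 CPM, Il33 at 183 CPM, Cxcl13 at 284 CPM and Ly6a at 55.0 CPM. A further 123 members lay in the cluster led by Gdf10, Cdo1 and Barx1, 32 in the cluster led by Sele and Fbln1, 30 in one led by Cxcl15 and Rgs5, 18 in one led by S100a8 and cell cycle genes and 13 in the macrophage-gene cluster. The cells clustered include the genes of the rule, so this is a description. With 1 library per domain a cluster almost wholly dorsal may reflect the library.

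The member cells themselves fell into 6 subgroups. Subgroup 1 (339 cells, 46.0%, median 32799 UMIs) was led by Krt8, Cxcl9 and Ppef1, with the stress-response genes Fgf21, Ero1l and Ddit3 among its first 10 genes. Krt8 was found in 1.18% and Cxcl9 in 5.605% of its cells, so these leading genes describe few of them, whereas Chchd10, also among the first 10, was found in 99.7%. It had 88.0 CPM of Ly6a, 959 CPM of Igfbp3 and 491 CPM of Ddit3, and 306 of its cells were in the Cxcl13-led cluster. Subgroup 2 (242 cells, 32.8%, median 24356.5 UMIs) was led by Cdo1, Cpxm2, Cemip and Mgp and had 232 CPM of Gdf10 and 5172 CPM of the elastin gene Eln, and it held all 123 members of the Gdf10-led cluster. Cxcl13 was at 449 CPM in the first and 165 CPM in the second.

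Subgroup 3 (100 cells, 13.6%, median 19199 UMIs) had the highest levels of both genes of the rule, with Il33 at 1286 CPM, against 158 and 161 CPM in subgroups 1 and 2, and Tnfsf8 at 437 CPM. Its levels of Cxcl13 (2046 CPM) and Ccl11 (184 CPM) were also the highest of the 6, whereas Igfbp3 was at 486 CPM against 959 CPM in subgroup 1. Haptoglobin (Hp) was at 1409 CPM, Igf1 at 294 CPM, the bone morphogenetic protein antagonist gene Grem1 at 260 CPM and Tnfsf11 at 33.3 CPM. Of its cells 98 lay in the Cxcl13-led cluster and 3 had a high doublet score. Its median depth was the lowest of the 6 subgroups.

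Subgroup 4 (33 cells) carried mural cell genes, with Rgs5 at 492 CPM, Myh11 at 232 CPM, Igfbp2 at 983 CPM, Sfrp2 at 2683 CPM and Eln at 14900 CPM, while Pdgfra was at 46.7 CPM and no Ccl11 UMI was found. Subgroup 5 was the 13 cells with macrophage genes, with Lyz2 at 7634 CPM and Arg1 at 895 CPM. Subgroup 6 (10 cells) carried cell cycle genes, with Top2a at 556 CPM and Mki67 at 329 CPM. Col1a1 was between 2488 and 4628 CPM in all 6. The rule thus gathered cells of several clusters, and Tnfsf8 and Il33 are common to them by the rule itself.

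**Figure D5:**
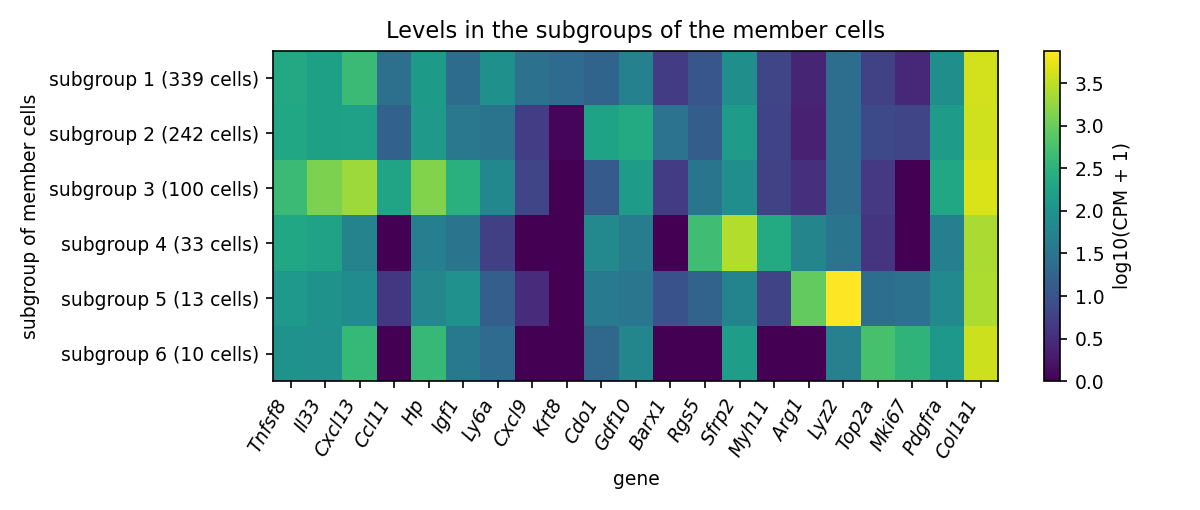
Levels of 21 genes (x axis) in the 6 subgroups of member cells (y axis), coloured by log10(CPM + 1). Subgroup 3 is brightest for Il33, Cxcl13, Ccl11 and Hp, subgroup 4 for Rgs5, Sfrp2 and Myh11, subgroup 5 for Arg1 and Lyz2 and subgroup 6 for Top2a and Mki67.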

How the data were processed

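The submitters' processing notes name Cell Ranger 3.0.2 and the build mm10 and give no settings. Each deposited matrix holds the authors' raw UMI counts for 28692 genes and 6794880 barcodes, unfiltered (246920028 dorsal and 264822916 ventral UMIs). Cells were barcodes with at least 8000 UMIs and at most 20% mitochondrial UMIs, which left 8926 dorsal and 10649 ventral cells. Members, lists and comparisons were chosen with earlier results of these data known.

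Counts of a group's cells were summed and scaled to CPM. Levels have exact Poisson, ratios exact conditional binomial and shares Clopper-Pearson 95% intervals. A count of 0 was set to 3 for bounds. Genes at 20 CPM or more in either group were counted as 2-fold apart or not. Genes of the rules were left out of these counts. No p-value was computed. The named genes were the 12 highest and 12 lowest ratios of the main comparison and the 6 of each other one, without mitochondrial, ribosomal protein and provisional names, the 4 given markers and list members of high level or wide ratio. Genes under 20 CPM, genes of subgroups and clusters, and the Il33 classes were chosen after their values were seen. Scrublet (scanpy 1.11.5) marked 0.0896% of dorsal cells by its own threshold, below 0.5%, so it was taken not to have worked, and the 637 highest scores were used in an alternative. Leiden clustering used 2000 variable genes, 30 components, 15 neighbours and resolution 1.0 (0.5 within members). Other software was Python 3.11.15, numpy 2.4.6, scipy 1.17.1, scikit-learn 1.9.0 and edgeR 4.0.16 for TMM factors. Code was checked on simulated counts. Positions come from GENCODE M21, GRCm38. Of 28692 gene IDs, 28416 matched.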

Additional observations from a re-analysis of the deposited data

How the results depend on the processing

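The member share of 8.26% was 8.99% with a minimum of 12000 UMIs, 11.8% with 1 Tnfsf8 UMI, 6.44% with 3, 9.87% without the Sele condition and 3.19% with each cell thinned to 8000 UMIs. It stayed inside its interval at 5000 UMIs, a 10% mitochondrial limit and without high doublet scores. Counts of genes at least 2-fold higher and lower, given in that order, moved most with the minimum level. With no minimum they were 3466 and 680 against the other dorsal Pdgfra cells, 1652 and 1967 against the Sele Cxcl5 cells, 2018 and 1551 against the Gdf10 cells and 4288 and 1420 against the ventral cells; at 50 CPM they were 10 and 12, 23 and 50, 32 and 73, and 152 and 236. Thinning gave 47 and 102, 140 and 202, and 218 and 197 for the 3 dorsal comparisons, and it chose fewer members. Against the other dorsal Pdgfra cells, 14 were higher with the same exclusions on both sides and 12 without the macrophage-gene subgroup, 83 were lower with members of the Cxcl13-led cluster alone, and 16 were higher and 78 lower against all other dorsal cells. Against the Gdf10 cells 111 were higher without high doublet scores and 108 with members of the Cxcl13-led cluster alone. TMM factors shifted log2 ratios by -0.10 to -0.01.

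Of 1786 recomputed log2 ratios of named genes 1762 kept their direction, and 614 of these left their counting interval. The 24 that turned were mostly macrophage genes in the main comparison. Against all other dorsal cells they were -0.28 for Arg1, -0.058 for Marco, -0.44 for Ccl4, -0.73 for Ccl12, -0.29 for Ccl3, -0.70 for Tyrobp, -1.19 for C1qa, -0.77 for Fcer1g, -0.83 for Ccl6, -0.65 for Ctss, -0.78 for Lyz2, -0.73 for Cd68 and -0.38 for Wfdc17; that comparison adds the macrophages of the library to the other side. Thinned, Ccl4 was at -0.46, Ccl12 at -1.05 and Ccl3 at -1.89, and Ccl3 at -1.04 against the ventral cells. Without the macrophage-gene subgroup Marco was at -0.084, Ctss at -0.10 and Lyz2 at -0.15, and in the Cxcl13-led cluster alone Marco was at -0.38 and Lyz2 at -0.24. Against the Sele Cxcl5 cells Nppa was at 0.10 with the same exclusions and Igfbp2 at -0.10 in the Cxcl13-led cluster alone. The cause of the other shifts was not tested. No paired analysis was possible because each domain has 1 library and no result comes from a test.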
